A study of Homo sapiens with 6 samples.

Results

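The mRNAs of the replication-dependent histones H2A and H2B were examined in RNA pulled down with the FERRY complex and in RNA pulled down with its affinity tag. The genes were chosen by name: protein-coding genes whose current symbol is H2AC or H2BC followed by a number (older names HIST1H2A, HIST1H2B, HIST2H2A, HIST2H2B and HIST3H2). The rule found 35 genes among the 60676 of the table, 17 for H2A and 18 for H2B, with 27 on chromosome 6 and 8 on chromosome 1. Of these, 24 had enough counts to be tested. FERRY is a complex that binds the early endosomal GTPase RAB5. The bait was the complex with glutathione S-transferase as tag (GST-Ferry, 3 libraries) or GST by itself (GST, 3 libraries). Both were bound to glutathione resin and incubated for the same time with lysate of HEK 293, an established cell line of human embryonic kidney origin kept as a suspension culture. The labels do not say whether the 3 libraries of a bait came from separate cultures or lysates, and the spread behind each p-value, between these libraries only, may be technical. The columns of the table are named control and sample, and control was read as GST and sample as GST-Ferry from these words.

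H2A and H2B pair as a dimer, and such dimers flank the H3-H4 tetramer in the nucleosome. Their replication-dependent genes lie in clusters, are transcribed mainly in S phase and mostly lack introns. The mRNA usually ends in a conserved stem-loop in place of a poly(A) tail. The stem-loop is bound by SLBP and guides 3′ end processing, translation and the rapid decay of the mRNA when DNA synthesis stops. Several H2A and H2B genes can also give longer, polyadenylated mRNAs that read past the stem-loop. Libraries depleted of ribosomal RNA, as these were, hold mRNAs with and without poly(A) tails.

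The stem-loop is shown for members that stand in the results, because it is the feature that sets these mRNAs apart from other mRNAs. The sequences are from GENCODE 29 transcripts (GRCh38), 5′ to 3′, with the 16-base stem-loop in capitals (a stem of 6 base pairs and a loop of 4 bases) and 5 flanking bases on either side.
H2BC13: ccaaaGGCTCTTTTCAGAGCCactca
H2BC15: acaacGGCTCTTTTCAGAGCCaccta
H2BC18: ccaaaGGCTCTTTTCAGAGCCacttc
H2BC21: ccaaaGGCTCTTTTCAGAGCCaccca
H2BC26: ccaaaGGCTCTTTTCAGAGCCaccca
H2BC5: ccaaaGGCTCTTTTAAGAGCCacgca
H2AC11: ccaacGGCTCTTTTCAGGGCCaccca
In the annotated transcripts, 1479, 1729, 1917 and 1761 bases follow the stem-loop of H2BC18, H2BC21, H2BC26 and H2AC11. The stem-loop shown is therefore not the annotated end of these transcripts. H2BC15 has 2 distinct matches, and the match nearest a transcript end is shown. The first 5 carry the same 16 bases, shared by 14 of the 18 members with a match to the histone stem-loop pattern. H2BC5 has the version found in 3 members (H2BC4, H2BC5 and H2BC7), and the version of H2AC11 was found in that gene alone. The pattern occurred in transcripts of 39 of 19922 coding genes (0.196%), 32 of them with a histone name. Of the 17 members without a match, 15 have models in GENCODE 29 that hold the coding sequence alone, among them H2AC4, H2AC20 and H2BC17, so their 3′ ends could not be searched.

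The start regions of H2AC20 and H2BC21 are shown because these neighbours, transcribed away from each other on chromosome 1, were both enriched. Each sequence is the 120 bases before the gene's start in RefSeq (GRCh38.p14), on the gene's own strand. Capitals mark the octamer ATTTGCAT, TATAAA and CCAAT, read on both strands.
H2AC20: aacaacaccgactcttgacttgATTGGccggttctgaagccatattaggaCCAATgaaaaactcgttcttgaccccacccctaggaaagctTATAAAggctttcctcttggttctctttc
H2BC21: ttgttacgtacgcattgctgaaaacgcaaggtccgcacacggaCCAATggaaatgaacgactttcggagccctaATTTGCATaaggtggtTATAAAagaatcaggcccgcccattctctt
The H2AC20 sequence is chr1:149886798-149886917 on the plus strand, and the H2BC21 sequence is chr1:149886683-149886802 on the minus strand. RefSeq gave a start region for 16 of the 17 H2A members and all 18 H2B members. In the 250 bases before the start, the octamer occurred in 11 H2A and 14 H2B members, against 1.63% of 35116 start regions. TATAAA occurred in 12 H2A and 12 H2B members (10.7% of all start regions), and CCAAT in 16 H2A and 18 H2B members (32% of all). Divergent neighbours share part of these windows, so the counts are not independent, and a match is a description of letters, not of a bound site.

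The libraries held between 2454538 and 10466520 counts, with the GST libraries deeper (7390346 to 10466520) than the GST-Ferry libraries (2454538 to 6532665). GST 3 stood apart from the other GST libraries, with a chi-square per degree of freedom over genes of 50.3 and 47 against them, beside 10.9 between GST 1 and 2. GST-Ferry 1 stood apart from the other GST-Ferry libraries in this measure, with 15.5 and 23.2 beside 4.43 between GST-Ferry 2 and 3. The measure takes in the FERRY subunit genes, such as PPP1R21 with 5454, 45978 and 86498 counts in GST-Ferry 1, 2 and 3. It also rises with depth, so it does not show how far the other genes of GST-Ferry 1 differed. Levels below are CPM, counts scaled to a common library size with TMM factors, which hold the bulk of genes level between libraries. The limit that a count of 0 allows, 3 counts, was 0.273 CPM in the deepest library (GST 2) and 1.30 CPM in the shallowest (GST-Ferry 3), for counting error only. The mRNAs of the 5 FERRY subunits, which check the labels, summed to 372 to 480 CPM in the GST libraries and to 2377, 28951 and 57088 CPM in GST-Ferry 1, 2 and 3. This difference lay in TBCK, PPP1R21 and C12orf4, the 3 subunits that were enriched, while GATD1 and CRYZL1 had log2 fold changes of 0.12 and -0.50 with overlapping groups. All 8 markers chosen for the HEK 293 line had enough counts to be tested, and their sum was 1025 to 1200 CPM with GST, against 1504 to 2205 CPM with GST-Ferry. Of the 8, 7 lay above 0 in fold change (47.8% of all tested genes), and the keratin KRT18 was enriched (0.592% of all). PAX2, the renal lineage factor, had 10.9 ± 2.66 and 11.3 ± 3.21 CPM as mean ± SD over 3 libraries of GST and of GST-Ferry. Of 12 markers of other cell types, 2 (COL1A1 and COL3A1) were tested, and CD3E and HBB were at 0 in all libraries. The list summed to 25.6 to 53.3 CPM with GST, against 59.4 to 66.1 CPM with GST-Ferry. The 5 nuclear long noncoding RNAs listed for comparison summed to 12365 to 13151 CPM with GST, against 8333 to 10112 CPM with GST-Ferry. MALAT1 made up most of this sum and of its difference (log2 fold change -0.61, adjusted p = 0.182, edgeR), NEAT1 and KCNQ1OT1 were at -0.02 and 0.09 with overlapping groups, and TUG1 was at -0.35. The part of these differences in the histone values was not tested. The lysate before the pulldown was not analysed here. Greater recovery of a histone mRNA and lesser recovery of other RNA therefore cannot be told apart.

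The H2A and H2B mRNAs lay higher with GST-Ferry than with GST as a group. All 35 genes together had 1980, 2280 and 2097 CPM in GST 1, 2 and 3 and 3372, 4105 and 3872 CPM in GST-Ferry 1, 2 and 3. No GST-Ferry library fell among the GST libraries, and the ratio of the means was 1.79. As a share of the deposited counts, the genes took 0.193% to 0.239% with GST and 0.353% to 0.386% with GST-Ferry. The summed FERRY subunit mRNAs ran from 2377 to 57088 CPM between GST-Ferry libraries, and the summed histone mRNAs from 3372 to 4105 CPM. Only 3 of the 5 subunit mRNAs were enriched, and a relation between these sums was not tested.

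H2A and H2B sums were both higher with GST-Ferry in every library, with H2B the larger in total. The 17 H2A genes summed to 695, 716 and 816 CPM in the GST libraries and to 1190, 1263 and 1361 CPM in the GST-Ferry libraries, a ratio of means of 1.71. The 18 H2B genes summed to 1286, 1564 and 1281 CPM and to 2182, 2842 and 2512 CPM, a ratio of 1.82. The ratio of the H2B sum to the H2A sum was lowest in GST 3 (1.57) and highest in GST-Ferry 2 (2.25). The baits overlapped in this ratio, with 1.85 in GST 1 beside 1.83 in GST-Ferry 1. The 4 most abundant members, H2BC12, H2BC11, H2BC4 and H2BC5, made up 41.9% to 46.8% of the total with GST and 38.5% to 44.8% with GST-Ferry.

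**Figure D1:**
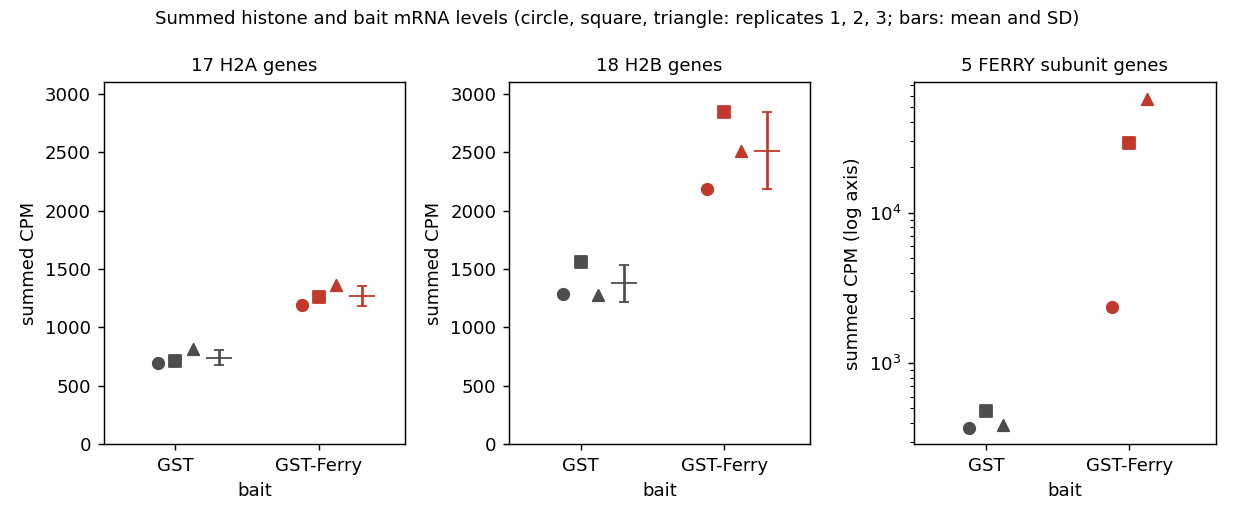
Summed TMM-scaled CPM (vertical axis) of the 17 H2A genes, the 18 H2B genes and the 5 FERRY subunit genes in each library, by bait; symbols stand for replicates 1, 2 and 3, the bars beside the histone points for mean and SD, and the FERRY panel has a log axis. H2A and H2B sums with GST-Ferry lie above all GST values, and they vary far less between GST-Ferry libraries than the FERRY subunit mRNAs, which run from 2377 to 57088 CPM.

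Among 24 tested members, 8 passed as enriched with GST-Ferry and 0 as depleted (adjusted p under 0.05 in the quasi-likelihood test of edgeR, Benjamini-Hochberg adjustment over all tested genes). Over all 15546 tested genes 0.592% were enriched and 0.0322% depleted. At an unadjusted p under 0.05, 20 members were higher, and 3006 of all 15546 tested genes were at such a p in either direction. A fold change above 0 was found in 22 of the 24 (47.8% of all tested genes), and the GST-Ferry libraries all lay above the GST libraries in 20 (14.9% of all) and below them in 0 (12.2% of all). The median log2 fold change of the tested members was 0.81, against -0.03 over all tested genes. All 8 enriched members, and no other tested member, were at 2-fold or more (1.69% of all tested genes). Their log2 fold changes ran from 1.01 to 1.28 and their adjusted p-values in that edgeR test from 0.0397 to 0.0468, near the threshold of 0.05. With RLE size factors or library sizes alone in place of TMM, 0 of 24 passed edgeR's test (0.0708% and 0.045% of all genes). At an unadjusted p under 0.05, 19 were higher with either. Of all 15546 genes, 3013 and 2735 were at such a p in either direction. Single libraries also moved the count. Leaving out GST 1 gave 3 enriched members (0.398% of all genes), GST 2 gave 0 (0.0191%) and GST 3 gave 18 (4.45%). Leaving out GST-Ferry 1 gave 3 (0.675%), GST-Ferry 2 gave 0 (0% of all genes) and GST-Ferry 3 gave 0 (0.0184%). Without GST 2, GST-Ferry 2 and GST-Ferry 3, 19, 16 and 17 members were higher at an unadjusted p under 0.05. Of all genes, 2696 of 15684, 1704 of 16307 and 1548 of 16312 were at such a p in either direction. DESeq2 called 15 of the 23 members to which it gave an adjusted p (4.35% of all such genes) and limma-voom 2 (0.0901%). The count was 12 of 30 with no filter on low counts (1.29% of all genes), and 8 with a minimum count of 30 (0.545%), without the FERRY subunit genes (0.573%) or thinned to the smallest library (1.2%).

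**Figure D2:**
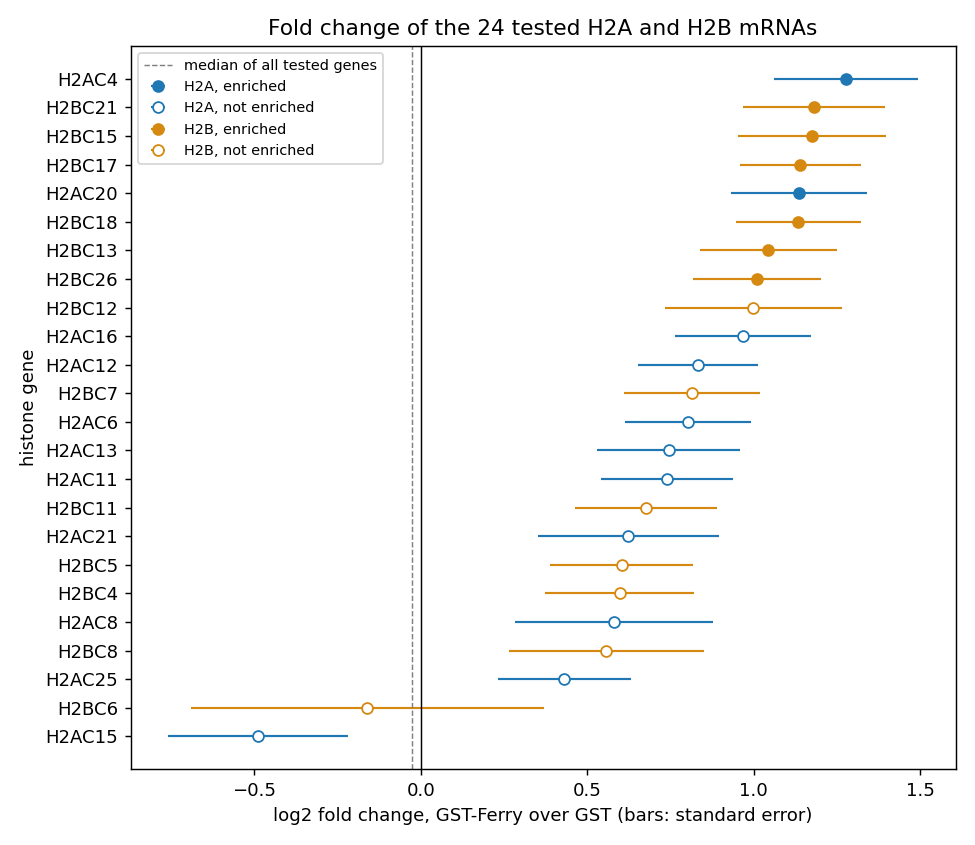
Log2 fold change of GST-Ferry over GST (horizontal axis) for the 24 tested histone genes, with standard errors from the fit as bars; filled points mark the 8 enriched genes and the dashed line the median of all tested genes, -0.03. All points except H2BC6 and H2AC15 lie to the right of 0, and the 8 enriched genes are those at a log2 fold change of 1 or more.

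Among H2A genes, which encode the partner of H2B in the dimer, the enriched members were H2AC4 and H2AC20. H2AC4 (older name HIST1H2AB, chromosome 6, 26033176 to 26033568, minus strand) had 20.2, 15.9 and 20.2 CPM in GST 1, 2 and 3 and 46.8, 38.2 and 51.3 CPM in GST-Ferry 1, 2 and 3. The lowest GST-Ferry value was above the highest GST value, and the log2 fold change of 1.28 ± 0.22 (SE; adjusted p = 0.042, edgeR) was the largest of all members. H2AC20 (HIST2H2AC, chromosome 1, 149886975 to 149887364, plus strand) had 71.2, 62.0 and 88.8 CPM with GST and 179, 163 and 145 CPM with GST-Ferry. Its groups did not overlap, with GST 3 the highest of the GST libraries, and its log2 fold change was 1.14 ± 0.20 (adjusted p = 0.042, edgeR). Both genes have a single annotated exon.

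The 3 most abundant H2A mRNAs were higher in every GST-Ferry library but did not pass the adjusted test. H2AC6 (HIST1H2AC) had 126, 139 and 129 CPM with GST and 195, 241 and 253 CPM with GST-Ferry, a log2 fold change of 0.80 ± 0.19 (adjusted p = 0.0663, edgeR). H2AC12 (HIST1H2AH) had 131, 120 and 114 CPM with GST and 217, 212 and 220 CPM with GST-Ferry. H2AC12 varied little between the GST-Ferry libraries, and its log2 fold change was 0.83 ± 0.18 (adjusted p = 0.0559, edgeR). H2AC11 (HIST1H2AG), with the stem-loop version of its own shown above, had 114, 92.9 and 132 CPM with GST and 199, 172 and 194 CPM with GST-Ferry, for a log2 fold change of 0.74 ± 0.20 (adjusted p = 0.0906, edgeR). These 3 genes were separated between the baits in all libraries, by a smaller ratio than the enriched members.

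H2AC15 (HIST1H2AK) was the H2A member with the lowest fold change and ran against the others. It had 20.5, 30.1 and 42.7 CPM in GST 1, 2 and 3 and 21.1, 21.1 and 24.4 CPM in the GST-Ferry libraries. The groups overlapped, since GST 1 was below all GST-Ferry libraries, and the log2 fold change of -0.49 ± 0.27 did not pass (adjusted p = 0.342, edgeR). All 393 bases of its exon are covered, on the opposite strand, by exons of the enriched gene H2BC15 in GENCODE 29. Leaving out GST 3 moved the log2 fold change to -0.23 and leaving out GST 1 to -0.73. The sources used here do not give the strand setting of the counting. H2AC15 held 1084 counts over all libraries, whereas the members covered by another gene on their own strand, H2AC7 and H2AC17, held 1 and 2. Of the other H2A members, H2AC16 reached 0.97 on the log2 scale (adjusted p = 0.0522, edgeR), and H2AC13, H2AC21, H2AC8 and H2AC25 lay between 0.43 and 0.74 with adjusted p-values of 0.105 to 0.3. H2AC8 and H2AC21 had overlapping groups and depended on single libraries. H2AC8, at 0.58, was at 0.31 without GST 1 and 0.96 without GST 3, and H2AC21, at 0.62, was at 0.36 without GST 1.

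Among H2B genes, 6 were enriched, and H2BC21 had the largest fold change of them. H2BC21 (HIST2H2BE, chromosome 1, 149884459 to 149886652, minus strand) had 123, 127 and 82.1 CPM in GST 1, 2 and 3 and 231, 248 and 276 CPM in GST-Ferry 1, 2 and 3. GST 3 was the lowest library, and the log2 fold change was 1.18 ± 0.21 (adjusted p = 0.042, edgeR). H2BC15 (HIST1H2BN, chromosome 6, 27837760 to 27865798, plus strand) had 56.1, 58.9 and 38.6 CPM with GST, against 96.4, 127 and 125 CPM with GST-Ferry. Here too GST 3 was lowest and GST-Ferry 1 the lowest of its group, and the log2 fold change was 1.17 ± 0.22 (adjusted p = 0.045, edgeR). H2BC15 has spliced annotated forms that reach 4 bases into H2AC16 on the same strand and cover H2AC15 on the other strand, so its count spans more than the short histone unit.

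H2BC17, H2BC18, H2BC26 and H2BC13 rose as well. H2BC17 (HIST1H2BO, chromosome 6, 27893463 to 27893843, plus strand) had 69.1, 74.9 and 69.1 CPM with GST and 152, 168 and 149 CPM with GST-Ferry. It was tight within both groups and had the smallest adjusted p of the members, 0.0397 by edgeR, with a log2 fold change of 1.14 ± 0.18. H2BC18 (HIST2H2BF, chromosome 1, 149782689 to 149812373, minus strand) had 88.6, 100.2 and 85.6 CPM with GST and 179, 205 and 219 CPM with GST-Ferry. Its libraries separated clearly by bait, at a log2 fold change of 1.13 ± 0.19 (adjusted p = 0.042, edgeR), and it has 5 annotated transcripts.

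H2BC26 (HIST3H2BB, chromosome 1, 228458107 to 228460470, plus strand), from a small cluster apart from the main histone clusters, had 54.4, 63.5 and 62.5 CPM with GST and 114, 139 and 110 CPM with GST-Ferry. The groups did not overlap, and the log2 fold change was 1.01 ± 0.19 (adjusted p = 0.045, edgeR). H2BC13 (HIST1H2BL, chromosome 6, 27807444 to 27807931, minus strand) had the lowest level of the enriched H2B genes, with 25.4, 33.2 and 24.9 CPM with GST, against 53.0, 57.7 and 62.2 CPM with GST-Ferry. Its values were even within each bait, with a log2 fold change of 1.04 ± 0.20 and the largest adjusted p of the enriched members (0.0468, edgeR).

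The most abundant H2B mRNAs were not among the enriched genes. H2BC12 (HIST1H2BK) had 187, 307 and 252 CPM in GST 1, 2 and 3 and 323, 628 and 542 CPM in GST-Ferry 1, 2 and 3. The groups did not overlap, but GST-Ferry 1 lay close to GST 2, and the log2 fold change of 0.999, just short of 2-fold, had an SE of 0.27 (adjusted p = 0.0899, edgeR). H2BC11 (HIST1H2BJ) had 209, 230 and 293 CPM with GST, against 350.2, 472 and 346 CPM with GST-Ferry, with GST-Ferry 2 the highest library (log2 fold change 0.68 ± 0.21). H2BC4 (HIST1H2BC) had 204, 276 and 190.2 CPM with GST and 302, 421 and 292 CPM with GST-Ferry. Replicate 2 was the highest library of both baits for H2BC4, and the log2 fold change was 0.60 ± 0.22, or 0.37 without GST-Ferry 2. Neither H2BC11 (adjusted p = 0.129, edgeR) nor H2BC4 (adjusted p = 0.18, edgeR) passed the test.

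H2BC6 (HIST1H2BE) had the lowest fold change of the H2B members at a very low level. It had 3.01, 2.55 and 1.62 CPM with GST, against 3.22, 0.398 and 2.17 CPM with GST-Ferry. The groups overlapped, with GST-Ferry 1 the highest and GST-Ferry 2 the lowest of the 6 libraries, and the log2 fold change of -0.16 ± 0.53 (adjusted p = 0.893, edgeR) turned to 0.01 without GST 1 and to 0.17 without GST-Ferry 2. The remaining tested H2B members, H2BC5, H2BC7 and H2BC8, had log2 fold changes of 0.60, 0.81 and 0.56, with no overlap between the baits and adjusted p-values of 0.163, 0.0777 and 0.314 in the edgeR test. Without GST 3, H2BC5 was at 0.39 and H2BC8 at 0.33, and H2BC8 was at 0.32 without GST-Ferry 3.

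**Figure D3:**
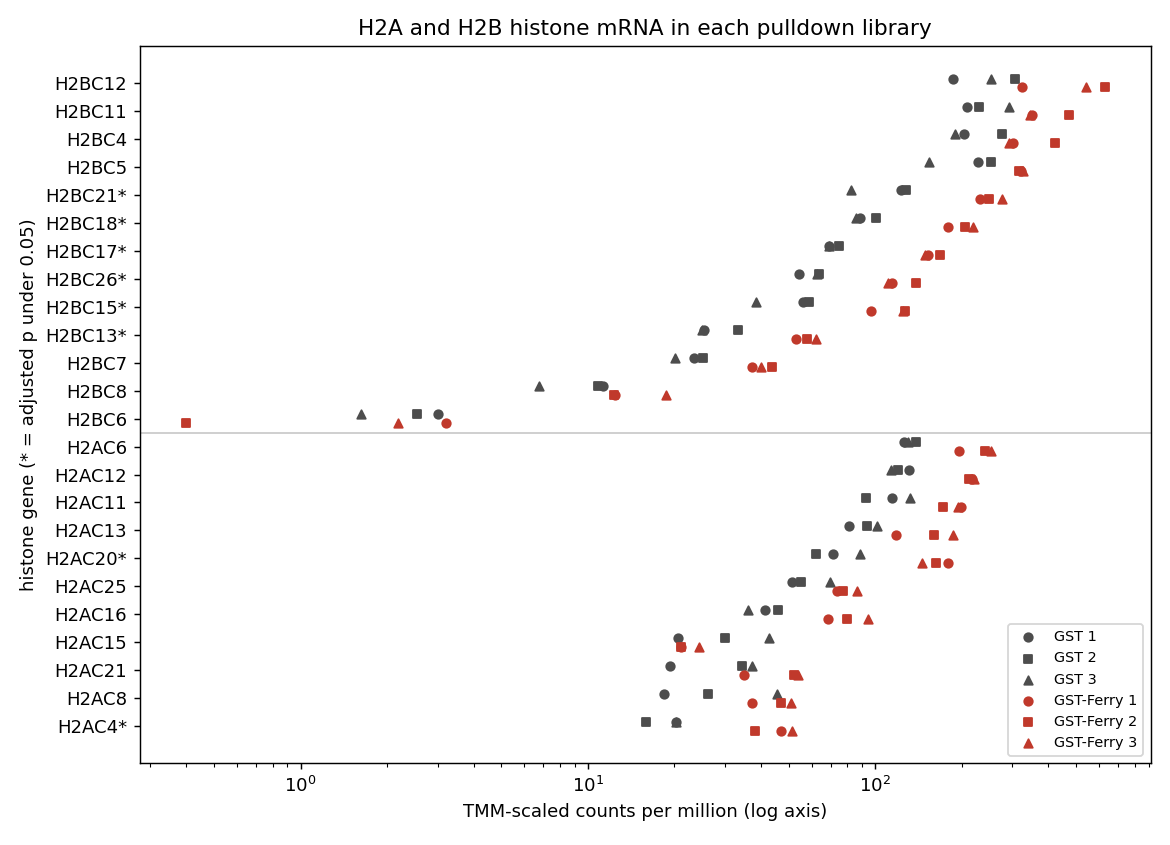
TMM-scaled CPM on a log axis (horizontal) for each tested H2A and H2B gene in each of the 6 libraries, grey for GST and red for GST-Ferry, with symbols for replicates 1, 2 and 3; genes are sorted by GST level within H2B (top) and H2A (bottom), and an asterisk marks the 8 enriched genes. The red points lie to the right of the grey points in 20 of 24 genes, and H2AC15, H2BC6, H2AC8 and H2AC21 overlap.

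The libraries within a bait differed in which genes stood highest. In the GST libraries, GST 3 was the highest of the 3 for 7 of 11 tested H2A genes and for 1 of 13 tested H2B genes, while GST 2 was the highest for 2 H2A and 10 H2B genes. Among the GST-Ferry libraries, GST-Ferry 1 was the lowest for 13 of the 24 tested members, GST-Ferry 2 for 6 and GST-Ferry 3 for 5. The median deviation of the tested members from their own GST mean, as log2(CPM + 1), was -0.04, 0.08 and -0.03 in GST 1, 2 and 3 and 0.66, 0.92 and 0.89 in GST-Ferry 1, 2 and 3. The deviation of GST-Ferry 1 was the smallest of its group and lay apart from all GST libraries. Without GST 3 and GST-Ferry 1 together, 20 of 24 members were enriched by edgeR's test, and 11.5% of all tested genes.

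Compared per length of annotated exon, the order of levels differed from that of the counts. H2BC12 stood highest, at 653 CPM per kilobase with GST and 1306 with GST-Ferry, followed by H2AC12 at 314 and 559 CPM per kilobase. H2BC18, whose annotated exons span 3196 bases, had 28.6 and 62.9 CPM per kilobase. H2BC17, with 381 annotated bases, had 186 and 411 CPM per kilobase. These levels depend on the models, since those of H2BC12, H2AC12 and H2BC17 hold the coding sequence alone.

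Many H2A and H2B genes lie head to head, transcribed away from each other from a short shared region, and 11 such pairs were found among the members, with 219 to 331 bases between the annotated starts. Both partners were tested in 7 of these pairs, and both had a fold change above 0 in all 7. H2AC20 and H2BC21 were the only pair with both partners enriched (log2 fold changes 1.14 and 1.18). In 2 of the 7 pairs the H2B partner alone passed: H2BC13 at 1.04 beside H2AC13 at 0.74, and H2BC26 at 1.01 beside H2AC25 at 0.43. The widest gap within these 7 pairs was the 0.58 between H2BC26 and H2AC25, and the difference between partners was not tested. H2AC15 and H2BC15 were not counted as a pair, since the outermost start of H2BC15 lies on the far side of H2AC15. By their RefSeq starts they too lie head to head, with overlapping start regions (chr6:27838376-27838495 and chr6:27838449-27838568). These 2 genes differed more, with log2 fold changes of -0.49 for H2AC15 and 1.17 for H2BC15, which alone was enriched.

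**Figure D4:**
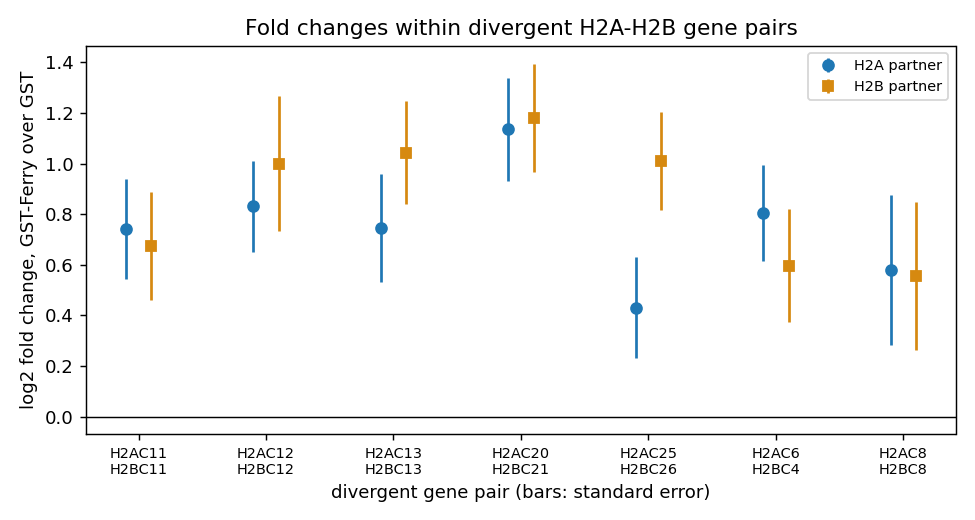
Log2 fold change of GST-Ferry over GST (vertical axis, bars are standard errors from the fit) for the H2A partner (circle) and the H2B partner (square) of each of the 7 divergent gene pairs with both partners tested. Both partners lie above 0 in every pair shown. They lie at nearly the same height for H2AC20 and H2BC21 (1.14 and 1.18) and furthest apart for H2AC25 and H2BC26 (0.43 and 1.01).

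Enriched members were found among all forms of annotated transcript, and over all tested genes 0.592% were enriched. The 12 tested members with a spliced form or a transcript over 1000 bases had 4 enriched and a median log2 fold change of 0.77, and the 12 with short single-exon forms had 0.90 with 4 enriched. The 15 tested members with a stem-loop match had a median of 0.74 with 5 enriched, and the 9 without a match had 0.97 with 3 enriched. Apart from H2BC11, these 9 have models that hold the coding sequence alone, so they are not shown to lack a stem-loop. By position, the 18 tested members on chromosome 6 had a median of 0.77 with 4 enriched, and the 6 on chromosome 1 had 1.07 with 4 enriched. None of these differences was tested.

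Histone genes resemble each other, and the share of 50-base words of a member that also occur in another gene's transcripts measures how far reads could be split. It was between 0% (H2AC4) and 30.5% (H2AC20) for the 8 enriched members. Among the 18 tested members with under 10% of words shared, the median log2 fold change was 0.71, with 16 above 0 and 4 enriched (H2AC4, H2BC15, H2BC21 and H2BC26). The 6 with a larger share had a median of 1.09 and 4 enriched. Of all tested genes, 47.8% were above 0 and 0.592% enriched. Among these 6, H2BC12 (74.1% of words shared) and H2AC13 (62.3%) are the members whose values are least certain to be their own. How reads with several matches were counted is not given in the sources used here.

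The 11 members that could not be tested had few or no counts. H2AC1, H2AC14, H2AC18, H2AC19 and H2BC14 were at 0 in all 6 libraries. For H2AC1 and H2BC14, which share no 50-base word with another gene, this allows up to 0.273 CPM in the deepest library and 1.30 CPM in the shallowest. No such limit can be given for H2AC14, H2AC18 and H2AC19, whose reads may match other genes as well. H2AC1 and H2BC1, which had 3 counts in all, are the testis forms of H2A and H2B. H2AC18 and H2AC19 are copies of each other, with 100% of the words of H2AC18 found in H2AC19. Of 5 members with over 80% of words shared (H2AC7, H2AC14, H2AC17, H2AC18 and H2AC19), none had more than 2 counts over all libraries. H2AC7 (1 count) and H2AC17 (2 counts) are covered by exons of another coding gene on the same strand for 98% and 88% of their exon bases in GENCODE 29. Their values therefore say little of the mRNA itself. H2BC3, H2BC9 and H2BC10 had 16, 20 and 56 counts in all.

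The other replication-dependent histones also lay above 0. Of 35 listed H1, H3 and H4 genes 19 were tested, all 19 were above 0 and 5 passed as enriched. Over all tested genes, 47.8% were above 0 and 0.592% were enriched. Their median log2 fold change was 0.92, beside 0.81 for the H2A and H2B members. H3C10 had the largest, at 144 ± 28.3 CPM in the GST libraries and 369 ± 93.6 CPM in the GST-Ferry libraries (mean ± SD over 3), a log2 fold change of 1.35. H4C5 followed at 1.31 and H3C1 at 1.22. Of the replacement variants of H2A and H2B, many of which are made outside S phase as well, 5 of 14 listed genes were tested. By edgeR's test 0 were called and 2 were at an unadjusted p under 0.05, with a median of 0.51. Over all 15546 tested genes, 3006 were at such a p. H2AZ1, the most abundant variant, had 409 ± 117 and 581 ± 139 CPM, and H2AX, whose gene also gives a stem-loop mRNA, had 139 ± 3.40 and 264 ± 43.9 CPM (log2 fold change 0.92, adjusted p = 0.0522, edgeR). The differences between these lists and the H2A and H2B members were not tested.

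None of the genes listed here for factors of histone mRNA passed the adjusted test, which few of all tested genes passed (0.592% enriched, 0.0322% depleted). Of 43 tested factors of transcription, 3′ end processing, translation and decay of histone mRNA, 23 lay above 0, beside 47.8% of all tested genes. By edgeR's test 0 were called, and 8 were at an unadjusted p under 0.05, of which 5 were higher and 3 lower. Over all 15546 tested genes, 3006 were at such a p. The median log2 fold change of the factors was 0.13, against -0.03 over all tested genes. SNRPB, a core protein of spliceosomal and U7 particles, was named after its values were seen. It stood nearest to a call, with 118 ± 34.7 CPM in the GST libraries, 245 ± 38.3 CPM in the GST-Ferry libraries and a log2 fold change of 1.05 (adjusted p = 0.0593, edgeR). SLBP, which binds the stem-loop shown above, had 81.1 ± 29.4 CPM with GST, against 88.7 ± 14.8 CPM with GST-Ferry. The most abundant gene of each group was CASP8AP2 for transcription (168 ± 28.5 and 129 ± 10.4 CPM), SYMPK for 3′ end processing (208 ± 57.2 and 242 ± 27.1 CPM) and SMG1 for decay (346 ± 53.0 and 269 ± 11.7 CPM). The 11 listed chaperones and import receptors of histones, not all of them particular to H2A-H2B, had a median of 0.02. By edgeR's test 0 of them were called (2 at an unadjusted p under 0.05), and NPM1, the most abundant, had 1170.4 ± 214 and 1157 ± 227 CPM.

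Length and exon number were compared because most replication-dependent histone mRNAs are short and unspliced. Of 251 tested coding genes outside the H2A and H2B members whose longest transcript is under 1000 bases, 199 lay above 0 and 13 passed as enriched, and the median log2 fold change was 0.43. Of 228 tested single-exon coding genes outside the members, 155 lay above 0 and 7 passed as enriched, and the median was 0.19. Over all tested genes, 47.8% lay above 0 and 0.592% were enriched. Both lists leave out only the H2A and H2B members, so other histone genes can be in them, and H3C10 is among the single-exon genes. How much of these counts other histone genes make up was not determined. With offsets for transcript length and GC content, 12 of 24 members were enriched, beside 1.42% of all tested genes, and their median log2 fold change was 0.79. Of the 8 enriched members, 7 were among these 12, and H2AC20 was not (0.94, adjusted p = 0.0511, edgeR).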

How the data were processed

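The authors deposited raw read counts per Ensembl gene for 6 libraries. STAR 2.5.2b, bcl2fastq 2.19.1 and the build GRCh38.p13 are named in the submitters' processing notes; the counting program, annotation, strand setting and treatment of reads with several matches are not given in the sources used here. Per the labels' protocols, ribosomal RNA was depleted and libraries were strand-specific. Symbols came from a table of gene names, with GENCODE 29 and RefSeq synonyms for the rest (60653 of 60676 IDs), and models from GENCODE 29 (GRCh38), which may differ from the authors' annotation.

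Genes were filtered with filterByExpr (minimum count 10, minimum total 15), scaled with TMM and tested over all 15546 remaining genes with edgeR 4.0.16 (R 4.3.3), by the two-sided quasi-likelihood test with no covariate and Benjamini-Hochberg adjustment; enriched means an adjusted p under 0.05 and a higher level with GST-Ferry. CPM use TMM-scaled library sizes. The procedure was tested on simulated counts. Alternatives were RLE factors, library sizes alone, other filters, a threshold of 0.01, DESeq2 1.42.0, limma-voom (limma 3.58.1), a replicate block, libraries left out, FERRY subunits removed, near-identical members summed, thinning, and length and GC offsets. Members and lists were chosen with earlier results of these data known. Values in every library are given for called members, the 3 most abundant members and the extremes of fold change of each family. Chi-square per degree of freedom between libraries of a bait was 4.43 to 50.3, above sampling noise, and all 6 were kept as separate. GST 3 and GST-Ferry 1 stood apart by this measure, which takes in the FERRY subunit genes, and were left out together in an alternative. Figures used matplotlib 3.10.9.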

Additional observations from a re-analysis of the deposited data

How the results depend on the processing

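All 22 tested members with a fold change above 0 kept it in every alternative run, with the enriched 8 between 0.86 and 1.39 on the log2 scale, while H2BC6, near 0, turned from -0.16 to 0.01 without GST 1 and to 0.17 without GST-Ferry 2 (-0.94 to 0.17 over single libraries left out). The number of enriched members, 8 by edgeR's quasi-likelihood test, depended on the setting. It was 0 with RLE size factors, 0 with library sizes alone and 0 at a threshold of 0.01, which 0 of all 15546 tested genes passed. In these settings 19, 19 and 20 members were higher at an unadjusted p under 0.05. Of all 15546 genes, 3013, 2735 and 3006 were at such a p in either direction. The number of enriched members was 2 with limma-voom and 15 with DESeq2. It was 12 with no filter on low counts and 12 with offsets for length and GC content (7 shared with the 8). It was 20 without GST 3 and GST-Ferry 1 together. Leaving out single libraries gave 0 to 18, with 0 without GST 2, GST-Ferry 2 or GST-Ferry 3. Without these, 19, 16 and 17 members were higher at an unadjusted p under 0.05 in edgeR's test. Of all genes, 2696 of 15684, 1704 of 16307 and 1548 of 16312 were at such a p in either direction. Over all genes, 92 were enriched, against 11 with RLE size factors, 14 with limma-voom, 512 with DESeq2 and 701 without GST 3. The cause was not tested.

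With the replicate number as a block, 9 members were enriched (1.07% of all genes). Same-numbered libraries of both baits correlated in their deviations at 0.24, 0.08 and -0.17, and differently numbered ones at -0.29 to 0.23. With 3 libraries per bait, these values cannot tell whether same-numbered libraries shared a lysate. With a minimum count of 30 and without the FERRY subunit genes, the same 8 members were enriched. Thinned to the smallest library 8 were, 7 of them shared. Summing near-identical members could change no value, since the copies concerned (H2AC14, H2AC18 and H2AC19) held 0 counts in all libraries. Over 454 values of single members under the alternatives, 346 kept their direction and side of the threshold, 66 fell short of it, 40 newly passed it and 2 reversed. The values with near-identical members summed are among the 346 and repeat the main fit. The GST-Ferry libraries, with as few as 2454538 counts, limit the low members such as H2BC6.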
